A study of Mus musculus with 2 samples.

Results

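The genes described here are 42 homeobox transcription factor genes that lie outside the Hox clusters, out of 21896 protein-coding genes on the assembled mouse chromosomes. They were taken from a list of gene names, drawn up with earlier results of these data known, and all 42 matched a protein-coding gene by symbol. A gene was counted as having ARID4B when at least 1 bp of an enriched interval fell inside its GRCm38 gene record or in the 1000 bp on either side. The study mapped the chromatin sites of ARID4B in newborn mouse testis with 1 ChIP library from a pool of 108 wild type testes at postnatal day 1.5, on a hybrid C57BL6/J and 129/SvEv background, with 1 library of input DNA from the same kind of tissue as the control. No ARID4B-deficient tissue was compared here, and all animals were wild type. With 1 ChIP library there is no replicate, so every count below describes 1 list of intervals, no test between conditions exists, and genes are not replicates of each other. Whole testes were pooled, so an interval cannot be assigned to Sertoli, Leydig, germ or other cells, and ARID4B in few cells cannot be told apart from weak occupancy in many.

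Homeobox genes encode proteins with a homeodomain, a helical DNA-binding fold that mostly reads short AT-rich sites. TALE proteins, named for a loop extension of 3 amino acids in that fold, include the Pbx, Meis and Pknox partners of Hox proteins, the Tgif repressors and the Irx proteins. In the early gonad, Lhx9 and Emx2 are needed for the genital ridge to grow, and Six4 acts upstream of the testis-determining gene Sry. Dlx, En and Nkx genes are better known from the face, limbs, brain and heart. The TALE, Lhx and Emx genes with Six2, Six4 and Six5 are called the gonad families below, a working name only, since no expression was measured. ARID4B is a chromatin protein of the SIN3-histone deacetylase complex, a corepressor complex.

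An ARID4B interval was present at 21 of the 42 genes (50%), beside 30.6% of all protein-coding genes under the same rule. The 3 highest scores were at Cux1 (654.56), Tgif2 (600.75) and Six5 (409.79), and most of the others were low. The score is the authors' own evidence value for each interval, used here only to rank intervals within the list. The median best score of the 21 genes was 115.71, below the 131.8 of all 6708 protein-coding genes with an interval. An interval scoring above the list's median of 124.98 was present at 9 of the 42 genes (21.4%), beside 16.7% of all protein-coding genes. The 21 genes met 28 different intervals out of 6632, and 3 of those 28 ranked in the best 10% of the list. Their widths ran from 644 to 3064 bp with a median of 987.5 bp, against 1084 bp over the whole list. Wider intervals had higher scores across all intervals (Spearman's rho 0.61, a description across intervals that share 1 library). The number of reads behind an interval is unknown from the values used here.

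**Figure D1:**
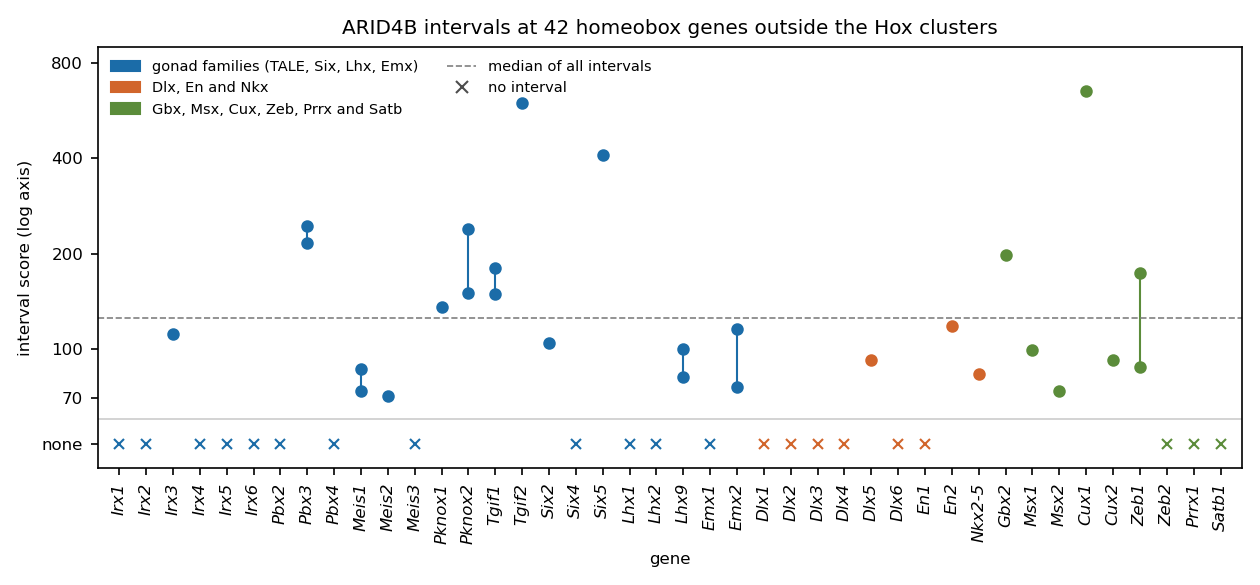
Score of every ARID4B interval at each of the 42 genes (log axis), with genes along the horizontal axis coloured by family group, a line joining the intervals of 1 gene, and crosses for genes with no interval. The dashed line is the median score of all intervals, 124.98. Cux1, Tgif2 and Six5 stand above 400, and the 3 Dlx, En and Nkx genes with an interval lie below the dashed line.

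The share of genes with an interval differed with the length of the gene record. Over all protein-coding genes the share ran from 16.4% in the shortest quartile of record length, up to 5.65 kb, to 42.3% in the longest, over 44.31 kb. Counting only the 1000 bp on either side of the ends of the record, it still ran from 15.9 to 35.0%. Homeobox genes had a median record of 9.55 kb, shorter than the 17.15 kb of all protein-coding genes. In the shortest quartile 5 of 12 had an interval (41.7%), Irx3, Six5, Dlx5, Gbx2 and Msx1. From 5.65 to 17.15 kb it was 6 of 15 (40%, against 30.1% of all), Tgif1, Tgif2, Emx2, En2, Nkx2-5 and Msx2. From 17.15 to 44.31 kb it was 3 of 5 (60%, against 33.7%), Pknox1, Six2 and Lhx9. Among the longest it was 7 of 10 (70%), Pbx3, Meis1, Meis2, Pknox2, Cux1, Cux2 and Zeb1. The share of the homeobox genes was the higher of both values in each of the 4 quartiles, which hold between 5 and 15 of them each. At the ends of the record alone, Lhx9, Meis1 and Meis2 dropped out. In the longer quartiles 2 of 5 (40%, against 30.2% of all) and 5 of 10 (50%, against 35.0%) were left.

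**Figure D2:**
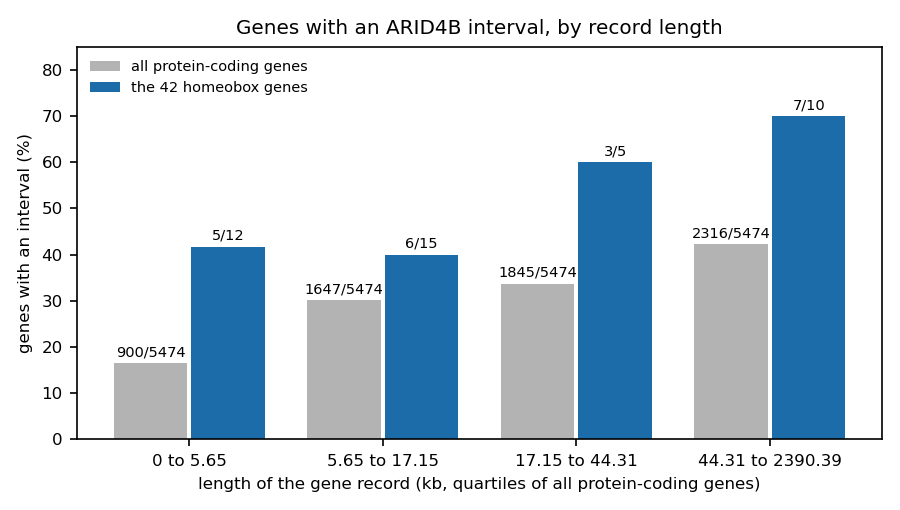
Share of genes with an ARID4B interval in each quartile of gene record length (kb), for all protein-coding genes (grey) and the 42 homeobox genes (blue), with the counts above the bars. Grey bars run from 16.4 to 42.3% and blue bars run from 40 to 70%.

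The sequences around the starts of 9 of the genes are shown because they are the places where the intervals do or do not lie. Each runs from 250 bases before to 50 bases after a start listed by RefSeq (build GRCm38.p6), 5′ to 3′ on the strand of the gene. For Tgif2 (chr2:156839757-156840056, plus strand), Emx2 (chr19:59458440-59458739, plus) and Cux1 (chr5:136565932-136566231, minus) all 300 bases lie in an ARID4B interval. For Six5 (chr7:19094294-19094593, plus) 239 bases do, and for Msx1 (chr5:37824536-37824835, minus) 210 do. In Irx3 (chr8:91801605-91801904, minus) and Lhx9 (chr1:138842395-138842694, minus) the interval lies within 1000 bp of the start but touches none of the 300 bases. Dlx1 (chr2:71529195-71529494, plus) and Dlx2 (chr2:71546705-71547004, minus) are neighbours with no interval. Capitals mark matches on either strand to TGACAG (the site of Meis, Pknox and Tgif proteins), TAATTA (a homeodomain site), GGGCGG (the GC box of Sp factors), CCAAT (the site of NF-Y) and TATAAA (the TATA box). No motif contains another, TAATTA reads the same on both strands, and a match is a description of letters, not a site of binding.
Tgif2: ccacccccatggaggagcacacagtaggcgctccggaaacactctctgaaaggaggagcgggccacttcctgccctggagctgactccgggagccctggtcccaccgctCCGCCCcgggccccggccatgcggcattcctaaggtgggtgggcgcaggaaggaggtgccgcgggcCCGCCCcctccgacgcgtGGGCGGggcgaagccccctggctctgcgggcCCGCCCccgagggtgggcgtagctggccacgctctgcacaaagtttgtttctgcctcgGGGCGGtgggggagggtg
Emx2: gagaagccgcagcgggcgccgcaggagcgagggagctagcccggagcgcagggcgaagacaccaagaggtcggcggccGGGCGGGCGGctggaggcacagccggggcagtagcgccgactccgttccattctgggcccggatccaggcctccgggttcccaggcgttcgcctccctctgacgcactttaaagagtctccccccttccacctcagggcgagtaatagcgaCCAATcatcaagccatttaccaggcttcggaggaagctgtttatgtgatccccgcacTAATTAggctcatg
Cux1: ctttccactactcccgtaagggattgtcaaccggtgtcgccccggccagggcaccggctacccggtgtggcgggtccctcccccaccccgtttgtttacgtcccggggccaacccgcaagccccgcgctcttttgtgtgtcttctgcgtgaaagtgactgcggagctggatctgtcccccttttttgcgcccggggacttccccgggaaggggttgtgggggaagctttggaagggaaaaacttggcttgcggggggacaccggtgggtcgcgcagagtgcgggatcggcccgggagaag
Six5: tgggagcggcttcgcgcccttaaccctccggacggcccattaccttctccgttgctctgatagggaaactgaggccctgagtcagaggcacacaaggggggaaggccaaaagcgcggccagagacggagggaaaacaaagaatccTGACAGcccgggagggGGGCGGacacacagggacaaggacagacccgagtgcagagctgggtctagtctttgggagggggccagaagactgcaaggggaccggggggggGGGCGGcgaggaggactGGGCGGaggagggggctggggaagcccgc
Msx1: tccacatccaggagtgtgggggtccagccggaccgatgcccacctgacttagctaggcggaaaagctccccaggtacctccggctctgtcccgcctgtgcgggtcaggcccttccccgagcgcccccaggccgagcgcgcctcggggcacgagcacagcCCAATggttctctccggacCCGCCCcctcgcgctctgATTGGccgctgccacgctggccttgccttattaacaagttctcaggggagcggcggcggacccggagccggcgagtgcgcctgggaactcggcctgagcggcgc
Irx3: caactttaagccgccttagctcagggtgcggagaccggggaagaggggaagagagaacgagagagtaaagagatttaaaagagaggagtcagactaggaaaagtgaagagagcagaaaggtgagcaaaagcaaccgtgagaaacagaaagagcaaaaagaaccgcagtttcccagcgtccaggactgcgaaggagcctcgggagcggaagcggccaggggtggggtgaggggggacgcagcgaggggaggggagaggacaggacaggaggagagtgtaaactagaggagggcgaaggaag
Lhx9: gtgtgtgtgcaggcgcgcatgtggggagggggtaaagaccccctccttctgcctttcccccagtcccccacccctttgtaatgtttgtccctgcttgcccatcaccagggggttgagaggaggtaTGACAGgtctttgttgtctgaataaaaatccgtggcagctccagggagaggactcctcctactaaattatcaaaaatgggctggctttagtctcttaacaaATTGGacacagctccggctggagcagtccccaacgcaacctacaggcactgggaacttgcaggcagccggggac
Dlx1: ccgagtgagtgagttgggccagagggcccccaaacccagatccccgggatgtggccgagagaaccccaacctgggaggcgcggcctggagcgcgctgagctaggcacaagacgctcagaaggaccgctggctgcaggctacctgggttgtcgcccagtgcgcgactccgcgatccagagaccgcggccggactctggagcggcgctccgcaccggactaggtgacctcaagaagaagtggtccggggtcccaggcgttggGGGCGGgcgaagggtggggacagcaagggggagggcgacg
Dlx2: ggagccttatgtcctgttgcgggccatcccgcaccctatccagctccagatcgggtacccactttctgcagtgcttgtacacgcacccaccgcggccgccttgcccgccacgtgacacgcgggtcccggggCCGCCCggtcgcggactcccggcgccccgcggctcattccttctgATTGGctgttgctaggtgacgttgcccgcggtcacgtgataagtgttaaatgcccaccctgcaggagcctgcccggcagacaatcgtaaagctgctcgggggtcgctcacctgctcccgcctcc

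The Tgif2 stretch held 5 GC boxes, the Six5 stretch 3 and the Emx2 stretch 2, where they overlap each other. Cux1, with the highest score of the 42 genes, had no match to any of the 5 motifs in its 300 bases, as did Irx3. Emx2 carried 1 TAATTA and 1 CCAAT, Six5 1 TGACAG, and Msx1 2 CCAAT and 1 GC box. Dlx1 and Dlx2, with no interval, each had a GC box and were as rich in CpG as the starts in intervals. Dlx1 had 27 CpG and Dlx2 29, against 25 for Tgif2, 26 for Emx2 and 25 for Cux1. Observed to expected CpG was 0.77 for Dlx1 and 0.9 for Dlx2, against 0.64, 0.84 and 0.79 for those 3. Lhx9 stood apart with 6 CpG and a ratio of 0.26. Its only listed start lies inside the gene record and not at the 5′ end, so the stretch does not describe that end.

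Across the homeobox genes with a listed start, CpG-rich starts occurred with and without an interval. RefSeq listed 44 such starts for 30 of the 42 genes, of which 11, from 9 genes, lay in an interval with at least 1 of their 300 bases. Those 11 had a median G+C share of 65.0% and a median observed to expected CpG of 0.79, and the other 33 had 58.3% and 0.69. Over all 21262 listed starts of protein-coding genes the medians were 65.3% and 0.84 for the 5091 in an interval, and 53.3% and 0.39 for the rest. Homeobox starts outside intervals thus had a higher median CpG ratio than all protein-coding starts outside intervals, with no test of the difference. GGGCGG was present in 7 of the 11 and in 15 of the 33, beside 75.9% and 36.8% of all starts in and outside intervals and 46.2% of all starts together. TGACAG was present in 2 of the 11 (Six5 and 1 start of Tgif1) and in 7 of the 33, beside 14.4% and 20% of all starts in and outside them, and in 18.7% of all starts. TAATTA was found at Emx2 and Msx2 in intervals and at Prrx1 outside. Over all protein-coding starts it was in 1.16% of those in intervals, 5.59% of those outside and 4.53% together, and no difference was tested. CCAAT was present in 4 of the 11 and 13 of the 33, beside 34.5% and 39.3% of all starts in and outside intervals (38.2% together). TATAAA was present in 0 of the 11 and 2 of the 33, beside 5.17% and 14.9% (12.6% together).

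TALE genes had an interval at 8 of 16 (50%), beside 30.6% of all protein-coding genes. Both Tgif genes, which encode repressors that restrain TGF-beta and retinoid signalling, had one. The Tgif2 interval (chr2:156839141-156841674) was 2534 bp wide and ranked 67 of 6632, its midpoint 400 bp downstream of the listed start, and it also reached the record of LOC115486128. Tgif1 had intervals at chr17:70850174-70851816 (179.79) and chr17:70852366-70853554 (149.32), each covering at least 1 of the 5 listed Tgif1 starts. Only Tgif2 of the 2 paralogs was in the best 10% of the list.

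Pknox1 and Pknox2, which encode partners of Pbx proteins, both had intervals. The Pknox1 interval (chr17:31565082-31566033) scored 135.66. The deposited list splits the higher end of the Pknox2 record into 2 intervals with 1 bp between them, at chr9:37144925-37146262 (240.22) and chr9:37146264-37147347 (150.35). Of the 3 Pbx genes, which encode Hox cofactors, Pbx3 alone had any, with 244.88 at chr2:34370914-34372002 and 216.88 at chr2:34372220-34373154, on both sides of the higher end of its record. Pbx2 and Pbx4 had none. Pbx2 was the nearest miss of all 42 genes, with an interval 4.0 kb from its record that lay at Notch4 (227.39). Pbx4, known from spermatocytes, was 28.9 kb from the nearest.

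Meis1 and Meis2, further Hox cofactor genes, had intervals of low score inside their long records. Those of Meis1 were at chr11:19015666-19016598 (86.66) and chr11:19014256-19015045 (73.42), their midpoints 2.8 and 4.3 kb downstream of the listed start. The Meis2 interval (chr2:116060573-116061371) scored 70.9, ranked 6548 of 6632 and had its midpoint 3.6 kb downstream of the listed start. The lowest score in the list is 70.02, so Meis2 and, with 73.44, Msx2 were close to the authors' limit. Meis3 had no interval, the nearest being 14.8 kb away at Slc8a2.

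Of the 6 Irx genes 1 had an interval (16.7%), beside 30.6% of all protein-coding genes. Irx genes sit in clusters of 3, and their products pattern the heart, limbs, nervous system and ovarian follicle. The Irx3 interval (chr8:91799662-91800684, 111.78) lay inside the record, its midpoint 1.5 kb downstream of the listed start. Irx5 and Irx6 on the same chromosome were 466.7 and 147.2 kb from the nearest interval. On chromosome 13 the whole cluster of Irx1, Irx2 and Irx4 fell in a stretch of 2689.6 kb between neighbouring intervals, with Irx1 1319.9 kb, Irx2 693.7 kb and Irx4 58.3 kb from the nearest.

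Six2 and Six5 had an interval and Six4 did not. The Six5 interval (chr7:19094355-19096391) ranked 225, was 2037 bp wide and covered the Six5 start. It also reached Dmpk, the gene of the myotonic dystrophy locus, so it cannot be assigned to Six5 alone. At Six2, the gene that maintains kidney nephron progenitors, the interval (chr17:85687183-85688018, 104.26) began 236 bp downstream of the listed start. The nearest interval to Six4 was 172.1 kb from the record, at Trmt5 and Slc38a6.

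Of the 3 listed Lhx and 2 listed Emx genes, Lhx9 and Emx2 had intervals and Lhx1, Lhx2 and Emx1 did not. Among 9 other LIM-homeobox genes Lhx4 (173.94, above both scores of Lhx9) and Isl2 (76.99) had one. Lhx9 had 2, at chr1:138838045-138838935 (100.13) and chr1:138841248-138842035 (81.56), with midpoints 4.0 and 0.8 kb downstream of its only listed start. That start lies inside the record, and the midpoints were 10349 and 7198 bp inside the 5′ end of the record. Lhx1, needed for the kidney and the Müllerian duct, and Lhx2, needed for the eye and forebrain, were 302.9 and 51.7 kb from an interval. Emx2 had intervals at chr19:59459091-59459931 (115.71) and chr19:59458057-59458916 (75.85), the second of which covered its start. Emx1, known from the cerebral cortex, was 118.2 kb away from one. All 4 intervals of Lhx9 and Emx2 scored below the list's median, and with 1 library no error can be put on these scores.

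Dlx, En and Nkx genes had an interval at 3 of 9 (33.3%), close to the 30.6% of all protein-coding genes. Genes of the gonad families had one at 12 of 24 (50%). Dlx genes pattern the jaw, limbs and forebrain and lie in neighbouring pairs. Dlx5 was the 1 of 6 Dlx genes with an interval (chr6:6881381-6882024, 92.35, the narrowest of the 28 at 644 bp), and its neighbour Dlx6 was 13.4 kb away from it. Dlx1 and Dlx2 were 74.2 and 89.5 kb from the nearest, and Dlx3 and Dlx4 110.1 and 112.5 kb. En2, a midbrain and hindbrain gene, had 117.85 at chr5:28166313-28167338, while its paralog En1 was 953.2 kb from any interval. At Nkx2-5, the heart regulator, the interval (chr17:26844325-26844989, 83.39) covered the 5′ end of the record. Its midpoint lay 331 bp inside that end but 3.1 kb upstream of the only listed start.

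The difference between these sets of families came with a difference in record length. All 9 Dlx, En and Nkx records were shorter than 17.15 kb, while 9 of the 24 others were longer. Among records up to that length 5 of 15 gonad family genes had an interval, the same 33.3% as the 3 of 9, beside 23.3% of all protein-coding genes of that length. Among the longer ones it was 7 of 9 (77.8%), with no Dlx, En or Nkx gene to set beside them. Of all protein-coding genes, 33.7% had an interval from 17.15 to 44.31 kb and 42.3% above that length. Scores of Dlx5, En2 and Nkx2-5, from 83.39 to 117.85, fell inside the range of the 12 others, from 70.9 to 600.75. None of the 9 had an interval above the list's median score, beside 16.7% of all protein-coding genes and 6 of the 24 (25%), which were Pbx3, Pknox1, Pknox2, Tgif1, Tgif2 and Six5. The only Nkx gene among the 9 is Nkx2-5. In the wider list described below, Nkx2-1 (125.02), Nkx2-3 (138.72), Nkx2-6 (136.37), Nkx2-9 (140.98) and Nkx6-2 (125.39) scored above that median. The other Nkx genes of that list had no interval. No test was made of the difference between the sets, since genes are not replicates.

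The remaining 9 genes had an interval at 6 (66.7%), beside 30.6% of all protein-coding genes. Cux1, which encodes a large CUT-domain repressor tied to the cell cycle, had the best of all 42 at chr5:136565124-136568187, ranked 46 and 3064 bp wide. Its paralog Cux2, known from upper cortical neurons, had 92.18 at chr5:122049622-122050724. Msx1 (99.15, chr5:37823882-37824745) and Msx2 (73.44, chr13:53472187-53472944), which respond to BMP signals, both had an interval over their start. Gbx2, a hindbrain gene, had 197.59 at chr1:89930059-89931518, shared with LOC102637806. Zeb1, an E-cadherin repressor, had 173.66 at chr18:5592528-5593685 and 87.64 at chr18:5590997-5592435, near the lower end of its record. Its paralog Zeb2 had none within 55.6 kb, and Prrx1, a mesenchyme gene, and Satb1, a chromatin organiser of thymocytes, had none within 504.3 and 556.7 kb.

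Paralogs were compared within each family. Tgif, Pknox, Msx and Cux had intervals at both listed genes. Emx, En and Zeb had them at 1 of 2. In no family with 2 or more listed genes were all of them without an interval.

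Of the 28 intervals, 14 lay within 1000 bp of a listed start, 5 lay farther from one, and 9 were at genes with no listed start. For the 30 genes with a listed start, 12 (40%) had an interval within 1000 bp of one, beside 28.0% of all protein-coding genes with a listed start. Among the 19 intervals at the records of those genes 10 covered a listed start (52.6%), beside 71.0% over all protein-coding genes. The 9 that did not were those of Irx3, Meis1, Meis2, Six2, Lhx9 and Nkx2-5 and the higher-scoring of Emx2. All of them but that of Nkx2-5 had their midpoint downstream of the start, from 0.7 to 4.3 kb. For Pbx3, Pknox1, Pknox2, Dlx5, En2 and Zeb1 no start is listed in the table used here, and distances were taken from the nearest end of the record.

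**Figure D3:**
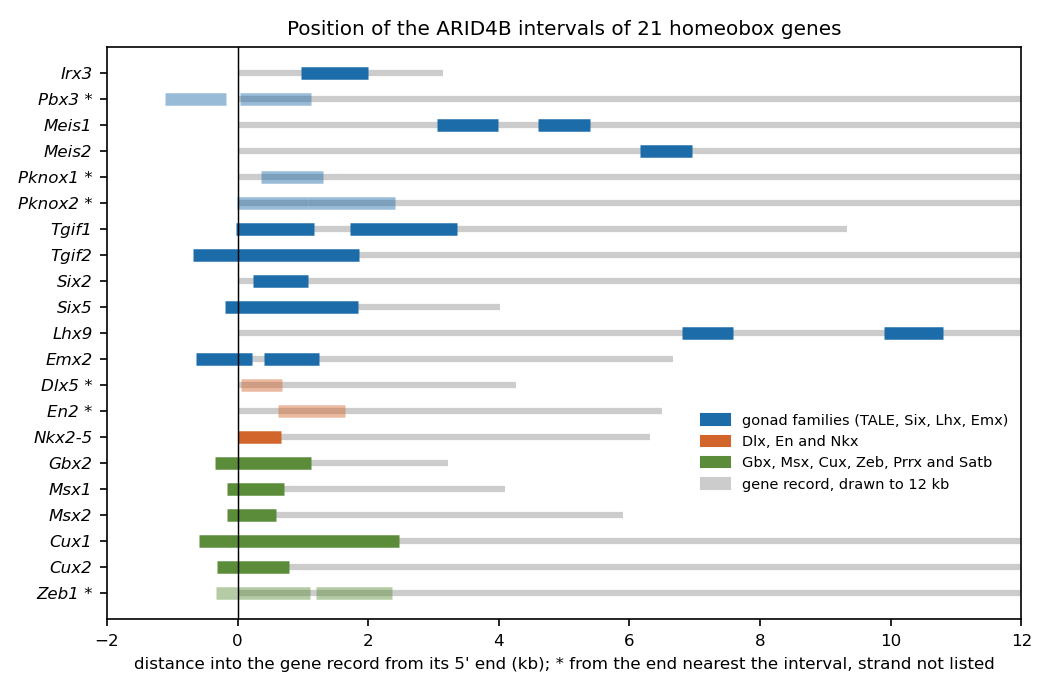
Position of the ARID4B intervals (thick bars) along the records (grey lines) of the 21 genes that have one, in kb from the 5′ end of the record, or, for paler bars and names with an asterisk, from the end nearest the interval. Most bars lie within 3 kb of the end, and those of Meis1, Meis2 and Lhx9 lie deeper.

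Of the 21 genes, 7 had 2 intervals (33.3%), beside 10.7% of all protein-coding genes with an interval. They were Pbx3, Meis1, Pknox2, Tgif1, Lhx9, Emx2 and Zeb1. In 6 of these the intervals were between 1 and 620 bp apart, and in Lhx9 2312 bp apart. With intervals less than 1000 bp apart joined into 1, only Lhx9 kept 2 (4.76%), beside 6.28% of all. The higher share before joining rested on intervals that the list gives as neighbouring pieces.

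The surroundings of these genes ranged from dense to empty. For the 21 with an interval, the nearest others on either side were a median of 636.6 kb apart, against 321.4 kb for all protein-coding genes with an interval. Within 100 kb of the record both sets had a median of 2 intervals. For the 21 genes without an interval the distance was 663.8 kb, against 712.0 kb for all protein-coding genes without one. The stretch was 3216.5 kb at Meis2, 1991.4 kb at Dlx5, 1969.9 kb at Meis1 and 1757.4 kb at Irx3, so these genes held the only intervals in those stretches. At the other extreme were Six5 with 75.8 kb, Pknox1 with 123.8 kb and Tgif2 with 140.2 kb. Of the 21 genes without an interval, 9 had one within 100 kb of the record (42.9%), beside 45.7% of all protein-coding genes without one. Their distances ran from 4.0 kb at Pbx2 to 1319.9 kb at Irx1, with a median of 112.5 kb.

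**Figure D4:**
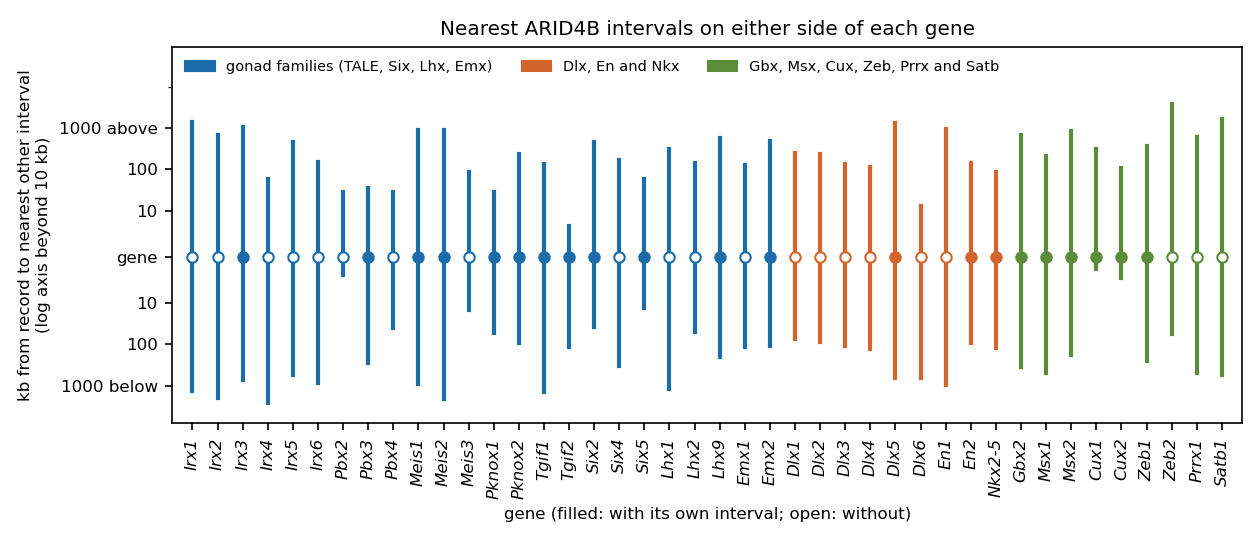
Distance in kb (log axis beyond 10 kb) from each gene record to the nearest other ARID4B interval on the side of lower and of higher coordinates, with filled circles for genes that have their own interval and open circles for those without. Meis2 and Dlx5 are filled circles in long empty stretches, while Pbx2 is an open circle with an interval 4.0 kb away.

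Other homeobox genes outside the Hox clusters gave a share close to that of all protein-coding genes. Of 142 such genes, from a list that also spans the NK, PRD, POU, zinc finger and ceramide synthase classes, 44 had an interval (31.0%), with a median best score of 125.2. High scores among them were at Pitx3 (319.91), Tshz3 (318.17) and Tlx3 (271.39). By class, 9 of 12 zinc finger homeobox genes had one, 10 of 40 PRD genes, 10 of 35 NK genes and 2 of 15 POU genes. Six3 had 92.38 and Six6 had none. Hox cluster genes lay in between with 17 of 39 (43.6%) and a median best score of 85.64, where neighbouring genes can share an interval. Because the 42 genes were listed with earlier results of these data known, no weight is put on their share being above that of the 142.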

How the data were processed

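ChIP DNA from ARID4B-antibody chromatin of pooled testes was sequenced beside input DNA. The submitters' processing notes name BWA, MACS and build mm9, but the deposited list is named for mm10. Its positions were read as GRCm38, since 70% of its intervals lay within 1000 bp of a listed start of that build and 4.33% did when moved up by 5000 bp. Versions, filters and read depth are unknown here. The only file used is the authors' list, in which each interval has a score of unstated scale.

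Intervals, counted from 1, were compared with RefSeq gene records and listed starts of GRCm38.p6 in Python 3.11.15 with pandas 2.3.3. A gene was counted at an overlap of 1 bp with its record widened by 1000 bp. All 21896 protein-coding genes were the background, including 256 on Y and 13 on MT, where the list has no interval. Motifs were counted in 300 bp sequences on both strands. Overlap steps were tested on simulated data. No p-value was computed.

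Members and lists were chosen with earlier results of these data known. All members are named. Sequences were printed for the best-scoring gene of the Irx, Pbx, Meis, Tgif, Six2/4/5, Lhx, Emx, Dlx, Msx, Cux and Zeb families with an interval within 1000 bp of a listed start, where there was one, and for the first 2 Dlx, En or Nkx genes without one. Of other genes, those that share a member's interval, some of those at a member's nearest interval and some of the best of the wider list are named. Lhx4, Isl2, Six3, Six6 and those Nkx genes of the wider list that are named above were named after their values were seen. Some genes of the wider list are not reported here by name.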

Additional observations from a re-analysis of the deposited data

How the results depend on the processing

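The 21 homeobox genes, and the 12 and 3 in the compared families, were the same genes with no flank, with a flank of 500 bp, and with the midpoint required to lie in the widened record. A flank of 5000 bp added Pbx2 (33.5% of all protein-coding genes had an interval). Counting only the 1000 bp around the ends of the record removed Lhx9, Meis1 and Meis2 (27.1% of all), and leaving out intervals that also reach another gene removed Gbx2, Six5 and Tgif2 (22.4% of all). With intervals above the median score, 9 of 42 genes, 6 of 24 gonad family genes and 0 of 9 Dlx, En and Nkx genes had one (16.7% of all), and the median best score became 240.22, as the lower scores are left out. Around the 5′ end of the record, with strand known for 30 genes, the counts were 12 of 30, 6 of 18 and 1 of 4, beside 25.9% of all. Chosen after the data were seen were the 1000 bp around any listed start (12 of 30, 7 of 18 and 0 of 4, beside 28.0% of all) and records up to the median length (11 of 27, 5 of 15 and 3 of 9, beside 23.3% of all). No paired analysis was possible because there is 1 ChIP library and no replicate. Depth is unknown, so genes without an interval may lie below the detection limit of the list.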
